A study of Mus musculus with 2 samples.

Results

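The genes described here encode 32 repressors of transcription that act through chromatin, out of 23356 gene symbols in the table. They were taken by name: the core of Polycomb repressive complex 2 (PRC2), subunits of Polycomb repressive complex 1 (PRC1) and of its variant PRC1.6, the enzymes that methylate histone H3 at lysine 9 (H3K9) with their corepressor, the heterochromatin protein 1 (HP1) family, and related silencers. All 32 were found, and each gene's level is the sum of the FPKM values of its transcripts (fragments scaled to transcript length and library size, so that levels of different genes can be compared). RNA came from mouse retina dissected at postnatal day 15, as a single library per genotype. In each, Dnmt1, Dnmt3a and Dnmt3b, which encode the 3 DNA methyltransferases, were flanked by loxP sites (flox/flox). The control retina was Rx-Cre negative and the triple mutant Rx-Cre positive, where regulatory sequence of the retinal gene Rx drives the Cre recombinase, and cells outside that lineage may keep the intact alleles. The genotypes also differ in their strain labels, C57BL/6 (control) and C57BL/7 (triple mutant). With 1 library per genotype there is no replicate check and no test, and every difference below is one between these libraries.

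Polycomb complexes keep developmental genes off: PRC2 methylates histone H3 at lysine 27, and PRC1 attaches ubiquitin to histone H2A and compacts chromatin. PRC1.6 is recruited to DNA by the sequence-specific factors E2F6, MGA and MAX, and is known for silencing germ-cell genes in body cells, a task it shares with DNA methylation at the same promoters. H3K9 methylation is read by HP1 proteins and marks heterochromatin and silenced repeats; in mouse rods heterochromatin gathers in the centre of the nucleus.

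The 2 libraries were comparable in scale. The FPKM values summed to 359370 in control retina and 363538 in the mutant, and the median log2 ratio of mutant to control over 13280 measured genes was 0.00. All ratios are log2((mutant FPKM + 1)/(control FPKM + 1)), and measured means at least 1 FPKM in at least 1 library. The targeted genes were lower in the mutant and not absent: Dnmt1 stood at 21.7 and 11.6 FPKM in control and mutant, Dnmt3a at 87.4 and 56.0, and Dnmt3b at 1.03 and 0.827. Retinal identity was plain, with the rod transducin gene Gnat1 at 4266 and 3211 FPKM. Several other cell types differed between the libraries. The summed level of 8 microglia and macrophage markers was 21.7 FPKM in control retina and 86.9 in the mutant, and all 8 were higher in the mutant. All 12 markers of cycling cells were also higher, with sums of 29.8 and 43.0 FPKM. The 6 cone markers summed to 923 and 418 FPKM, the 5 lens markers to 107 and 1.09, and the 5 pigment epithelium markers to 47.8 and 3.11, and all 16 were lower in the mutant. Markers of inner neurons were lower as well: the 5 ganglion cell markers summed to 434 and 280 FPKM, the 4 amacrine markers to 256 and 210 and the 3 horizontal cell markers to 50.1 and 26, each gene lower. The 6 bipolar markers were all higher, with sums of 652 and 891 FPKM. Of the genes in these 9 lists, Lim2, a lens gene, was the only one listed at 0, in the mutant. Of the T-cell markers, Cd3e and Cd3g were listed at 0 in control retina and stood at 0.0970 and 0.103 FPKM in the mutant. The part of these cell types in the differences below was not tested, and in bulk RNA fewer cells of a type and less RNA per cell cannot be told apart.

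The members as a group differed little between the genotypes, with 1 exception, E2f6. Of the 32, 31 were measured; Hells, at 0.671 and 0.506 FPKM, was not. Their log2 ratios had a median of 0.04 and quartiles of -0.08 and 0.14, beside 0.00, -0.16 and 0.15 over all measured genes. Of the 31, 19 lay between the quartiles of all genes, 8 above and 4 below. The size rule, |log2 ratio| of 1 or more, was passed by 1 member, E2f6, where 2.49% of all measured genes passed it. It was passed downward by 0 members, where 0.648% of all measured genes did. A smaller rule of 0.5 was passed by E2f6 alone as well, where 10.1% of all measured genes passed. Of the 51 member transcripts, 0 were called significant in the authors' deposited table, against 0.353% of all transcripts tested there. The lowest q-value of a member transcript in the authors' deposited table was 0.991.

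**Figure D1:**
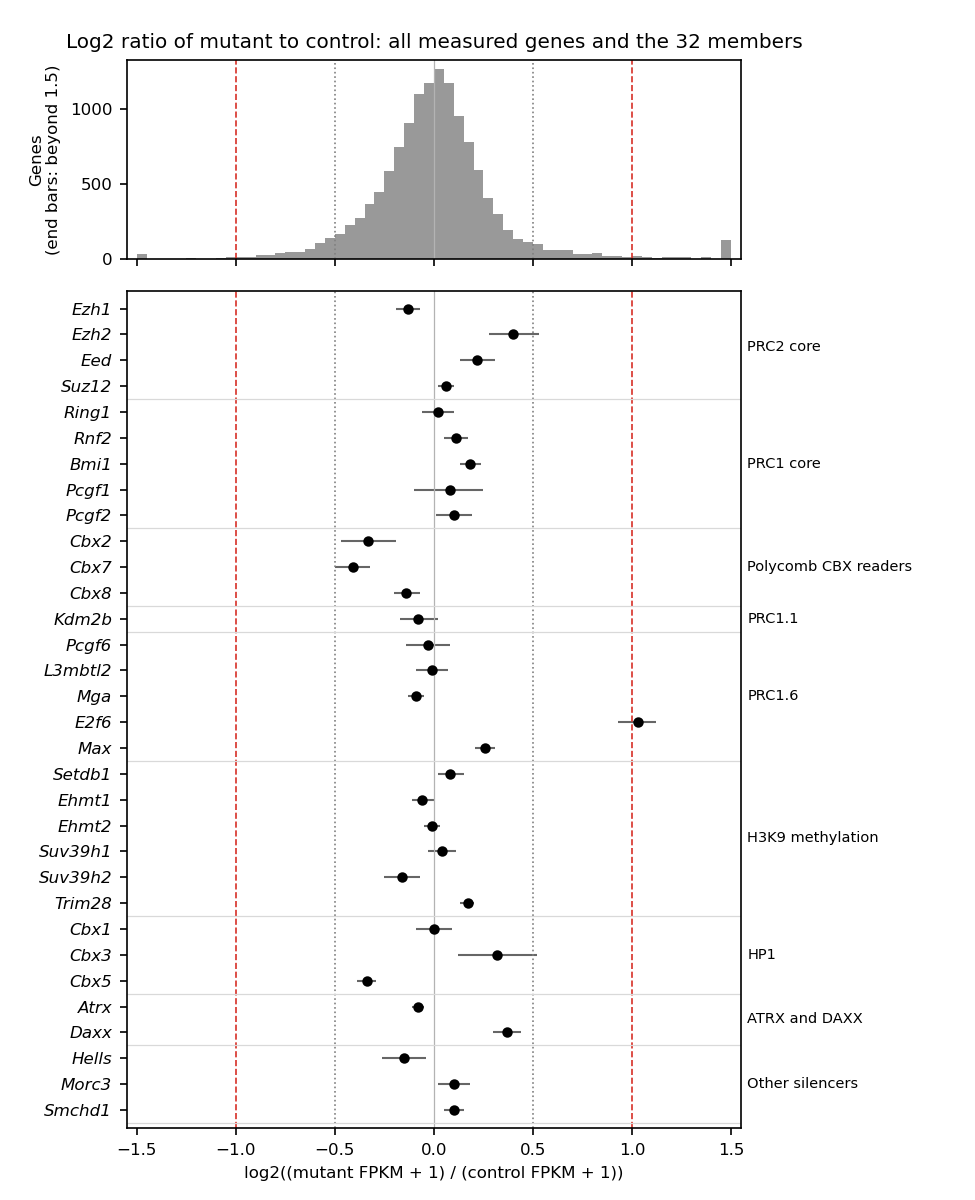
Log2 ratio of mutant to control for all 13280 measured genes (upper histogram, in which the end bars hold genes beyond 1.5 either way) and for each of the 32 genes (lower panel, points, with bars for the 95% interval of counting error). Dashed lines mark a log2 ratio of 1 and dotted lines 0.5; E2f6 at 1.03 is the only point past either.

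Levels ranged widely among the members and their order was much the same in both libraries. Trim28 was highest, at 68.2 FPKM in control retina and 76.6 in the mutant, followed in both by Max, Ehmt2 and Suz12. Hells was lowest in both, and Cbx2, Cbx3, Ezh2 and Kdm2b were the next lowest in both, though not in the same order. E2f6 moved furthest, from 25th place of 32 in the control to 11th in the mutant.

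**Figure D2:**
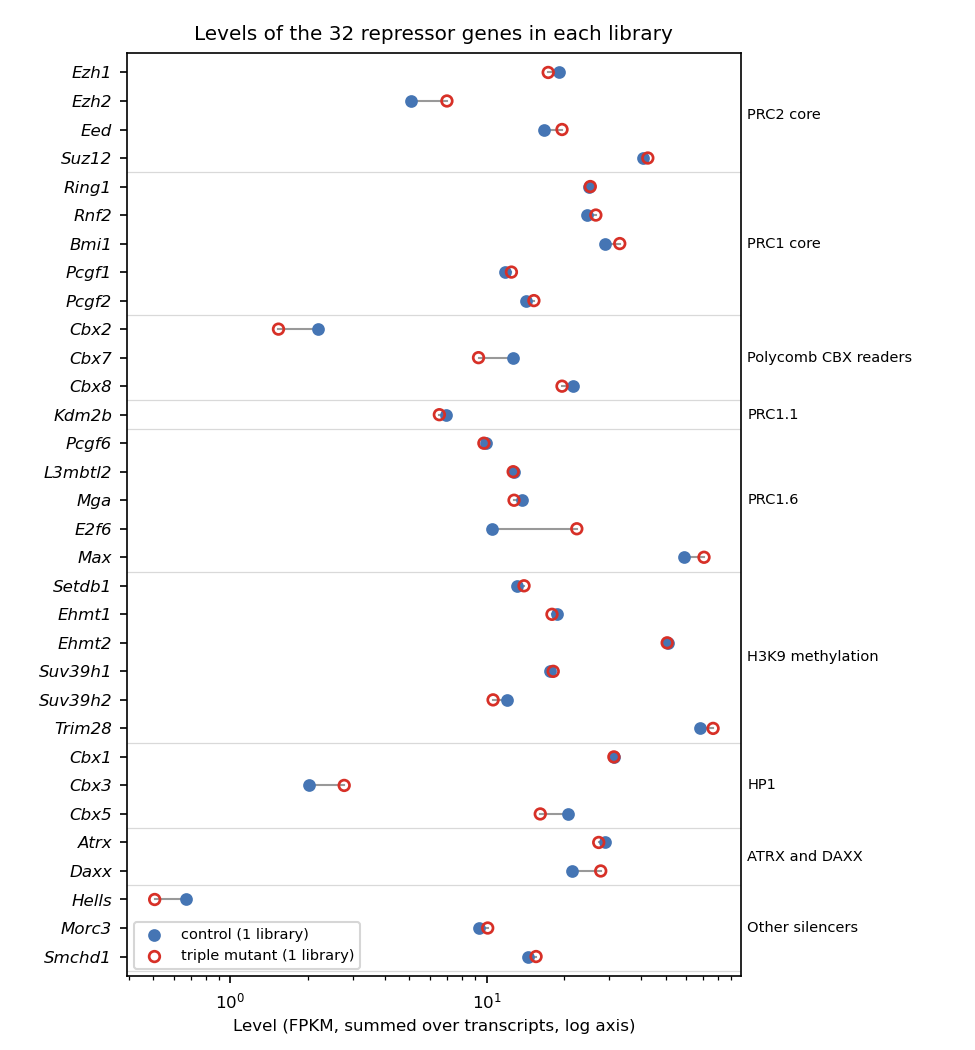
Level of each of the 32 genes in FPKM (log axis) in the control library (filled) and the triple mutant library (open), grouped by complex. The paired points lie close together except for E2f6, at 10.5 and 22.5 FPKM.

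E2f6 encodes a member of the E2F family that lacks the activation domain and represses transcription as a subunit of PRC1.6. It stood at 10.5 FPKM in control retina and 22.5 in the mutant, a 2.14-fold higher level with a 95% interval of 1.99 to 2.29 that covers counting error only. These levels rest on about 1138 and 2829 fragments. Of all measured genes, 233 (1.75%) had a higher log2 ratio than its 1.03. The gene lies on chromosome 12 from 16810963 to 16839742 on the plus strand (GRCm38, GENCODE M21). No exon of another annotated gene overlaps its exons, and no stretch of 50 bases in its transcripts occurs in a transcript of another gene. Both deposited transcripts were higher in the mutant: the coding transcript NM_033270 stood at 5.02 and 11.1 FPKM and the noncoding transcript NR_027677 at 5.50 and 11.4. The coding transcript thus held 47.8% of the gene's FPKM in control retina and 49.2% in the mutant. In the authors' deposited table these transcripts have p-values of 0.045 and 0.0499 and a q-value of 0.999 each, so neither passed the authors' correction.

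The other PRC1.6 subunit genes had smaller log2 ratios. Pcgf6, which encodes the RING-finger partner specific to this complex, stood at 9.99 FPKM in control retina and 9.76 in the mutant. L3mbtl2, which encodes an MBT-domain protein that binds chromatin, stood at 12.8 and 12.7 FPKM, with exons overlapped on the opposite strand by Chadl. Mga, which encodes the large scaffold with a T-box and a helix-loop-helix domain, stood at 13.7 and 12.8 FPKM. These 3 had log2 ratios between -0.09 and -0.01. Max, the shared helix-loop-helix partner of MGA and MYC, was higher in the mutant at 58.9 and 70.6 FPKM (log2 ratio 0.26), in both transcripts. E2f6 was at 0.771 times the level of Mga in control retina and at 1.76 times in the mutant, and at 1.05 and 2.30 times the level of Pcgf6.

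To show the letters at which E2F6 and MAX-type factors are known to bind, the 250 bases before the transcription start (RefSeq, GRCm38.p6) are given for E2f6 and for 3 germ-cell genes of PRC1.6, whose values follow. Each is written 5′ to 3′ on the gene's strand, with the E2F core TCCCGC (or its reverse complement GCGGGA) and the E-box CACGTG in capitals.
E2f6, chr12:16810715-16810964, plus strand: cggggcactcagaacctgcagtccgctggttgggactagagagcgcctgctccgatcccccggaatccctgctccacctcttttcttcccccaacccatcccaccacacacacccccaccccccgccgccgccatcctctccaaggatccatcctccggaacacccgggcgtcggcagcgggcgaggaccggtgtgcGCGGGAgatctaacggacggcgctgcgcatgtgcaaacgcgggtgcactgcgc
Slc25a31, chr3:40708621-40708870, plus strand: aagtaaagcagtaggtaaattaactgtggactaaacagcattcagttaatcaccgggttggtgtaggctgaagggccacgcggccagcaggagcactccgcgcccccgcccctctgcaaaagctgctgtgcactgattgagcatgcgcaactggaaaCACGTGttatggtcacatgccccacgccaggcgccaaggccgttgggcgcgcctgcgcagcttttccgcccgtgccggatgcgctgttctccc
Ddx4, chr13:112652311-112652560, minus strand: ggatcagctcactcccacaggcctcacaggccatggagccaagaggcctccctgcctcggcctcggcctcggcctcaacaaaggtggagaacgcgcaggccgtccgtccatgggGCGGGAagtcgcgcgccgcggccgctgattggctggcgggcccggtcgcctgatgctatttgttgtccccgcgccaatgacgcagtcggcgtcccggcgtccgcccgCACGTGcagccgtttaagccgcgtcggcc
Mael, chr1:166238745-166238994, minus strand: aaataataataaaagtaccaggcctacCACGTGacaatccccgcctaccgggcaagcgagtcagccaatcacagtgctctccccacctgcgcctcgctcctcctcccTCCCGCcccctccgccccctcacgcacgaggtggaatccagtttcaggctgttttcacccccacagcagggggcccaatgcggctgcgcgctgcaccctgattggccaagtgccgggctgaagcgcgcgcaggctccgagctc
In Slc25a31 the E2F core lies just after the start, and is shown in capitals in a short window.
Slc25a31, chr3:40708879-40708908, plus strand: cagcgcccgcttTCCCGCcagggtaaagct

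The E2f6 window holds 1 E2F core, 53 bases before the start, and no E-box. Ddx4 holds a core 136 bases and an E-box 29 bases before its start, and Slc25a31 an E-box 93 bases before its start. Mael holds a core 143 bases and an E-box 223 bases before its start. A second Mael core begins at base 12 after the start and is not shown above. Searched on both strands over 300 bases (250 before to 50 after the start), with a match of either motif counted whether or not it touched the other, the E2F core was found at 10 of 14 germ-cell genes and the E-box at 7. Of the members, 30 of 32 had a window in the table; 13 of them held the core and 6 the E-box. Of all 32817 windows, 20% held the core, 7.15% the E-box and 1.99% both. These shares count single windows, while a listed gene was counted if any of its windows held the motif, so the units differ. A match describes letters only, and no binding was measured here.

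The germ-cell genes known as targets of PRC1.6 or E2F6 were low in control retina and higher in the mutant. All 14 listed genes had a higher FPKM in the mutant, by any size, where 40.3% of all genes in the table did. That share counts 4986 genes at 0 in both libraries, which could not be higher, and 0 of the 14 were such genes. Of the 10 under 0.1 FPKM in the control, 8 reached at least 0.1 in the mutant, where 6.78% of all genes under 0.1 in the control did. The list was chosen with earlier results of these data known, so these counts support nothing by themselves. Slc25a31, the testis ADP/ATP carrier, stood at 0.0211 FPKM in the control, about 2.02 fragments, and at 4.02 in the mutant; the ratio of 190 has a counting interval of 52.6 to 1548. Dazl, a germ-cell RNA-binding protein gene whose window holds neither motif, stood at 0.0815 and 2.79 FPKM. Ddx4, the germ-cell RNA helicase gene also called Vasa, stood at 0.360 and 3.06 FPKM (8.5-fold, 6.34 to 11.6). Mael, which acts in the piRNA pathway, and Tex101, a germ-cell surface glycoprotein gene, were listed at 0 in control retina and stood at 1.56 and 0.575 FPKM in the mutant. Sycp3, for a protein of the synaptonemal complex, stood at 0.407 and 1.12 FPKM, about 19.5 and 62.5 fragments. Its exons are overlapped on the opposite strand by Chpt1, so its low level is less certain. The meiotic cohesin gene Stag3 stood at 2.87 and 4.09 FPKM. Zcwpw1, which encodes a reader of histone methylation in meiosis, was the highest of the list in both libraries, at 3.95 and 5.12 FPKM.

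The remaining germ-cell genes, like Tex101, were under 1 FPKM in both libraries. Tuba3b stood at 0.0293 and 0.515 FPKM and Tuba3a at 0.0153 and 0.157; 29.5% and 33.6% of their 50-base stretches occur in other genes, so these alpha-tubulin copies cannot be separated with certainty. Taf7l, a germ-cell form of a TFIID subunit gene, stood at 0.0232 and 0.358 FPKM. Meioc (0.0654 and 0.120), Smc1b (0.0319 and 0.0681) and Hormad1 (listed at 0 and 0.0131) were the lowest of the list in the mutant, with Tuba3a next. Of the 14 germ-cell genes, 7 were measured and 4 passed the size rule upward (1.84% of all measured genes did), but most were measured only through their mutant level, so that count supports nothing by itself. The libraries also differ in microglia and cycling-cell markers, as given above, and the part of these in the germ-cell values was not tested.

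**Figure D3:**
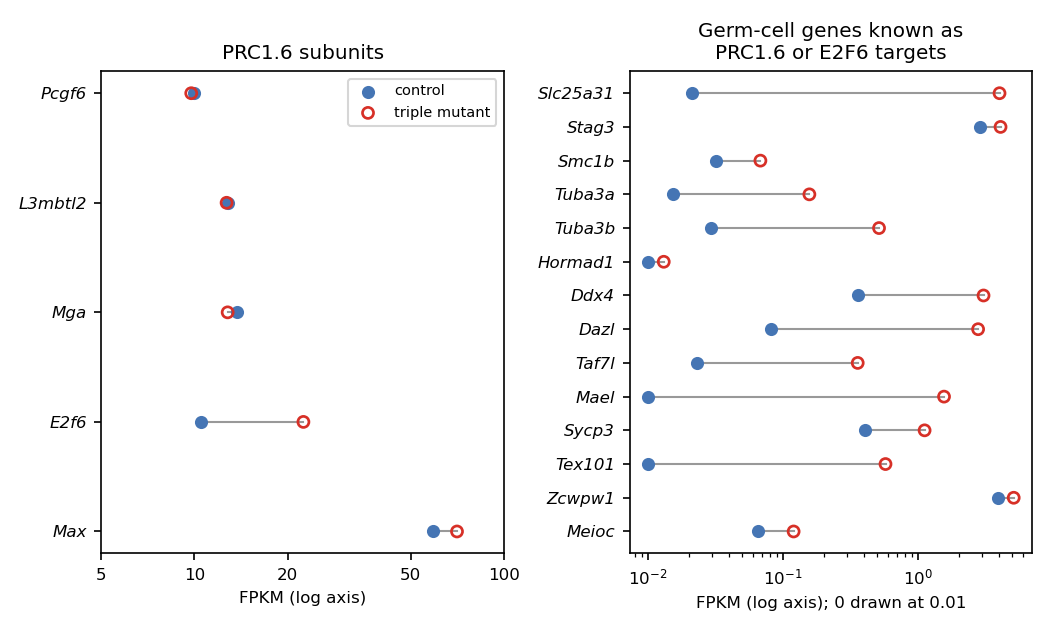
FPKM (log axes) of the 5 PRC1.6 subunit genes (left) and of 14 germ-cell genes known as their targets (right) in the control (filled) and triple mutant (open) library. Only E2f6 is clearly apart on the left, at 10.5 and 22.5 FPKM, while all 14 genes on the right are higher in the mutant; genes listed at 0 are drawn at 0.01.

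Hox genes, the classical targets of PRC2 and canonical PRC1, were at or near 0 in both libraries. Of 39 listed, 28 were at 0 in both libraries, 11 were higher in the mutant by any size and 0 were lower. Of all 23356 genes in the table, 4986 were at 0 in both libraries, 9413 (40.3%) were higher and 8957 were lower. Of the Hox genes, 0 reached 0.1 FPKM in either library. Of all genes under 0.1 FPKM in the control, 6.78% reached it in the mutant. The highest Hox level was 0.0115 FPKM in control retina and 0.0806 in the mutant, the latter about 7.97 fragments of Hoxc10.

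The PRC2 core was present in both libraries and led by Suz12, the scaffold subunit gene, at 40.8 FPKM in control retina and 42.6 in the mutant. Of the alternative methyltransferase genes, Ezh1, the form typical of cells that no longer divide, was the higher, at 19.1 and 17.4 FPKM. Ezh2, the form typical of dividing cells, stood at 5.05 and 7.00 FPKM, a ratio of 1.39 (1.26 to 1.53). Ezh1 thus had 3.79 times the FPKM of Ezh2 in control retina and 2.48 times in the mutant. Eed, which encodes the reader of the H3K27 mark, stood at 16.8 and 19.7 FPKM. Ezh2 had the largest PRC2 log2 ratio, 0.40, below the smaller rule; all 12 cycling-cell markers were also higher in the mutant, among them Pcna at 18.6 and 26.6 FPKM, and their part was not tested.

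Of the PRC1 genes, 5 catalytic and PCGF members had log2 ratios a little above 0. The ubiquitin ligase genes Ring1 (25 and 25.4 FPKM) and Rnf2 (24.7 and 26.7) were expressed at near-equal levels, and Rnf2 is overlapped on the opposite strand by Trmt1l. Bmi1, the PCGF partner gene of canonical PRC1, stood at 29.0 and 33.1 FPKM (log2 ratio 0.18), 2.05 and 2.16 times the level of its relative Pcgf2 (14.2 and 15.3). Pcgf1, of the PRC1.1 variant, stood at 11.8 and 12.5 FPKM. Of the 50-base stretches of Bmi1, 18.5% occur in other genes, and of those of Pcgf1 33.3%, so their levels are less certain. All 5 genes lay between 0.02 and 0.18 in log2 ratio. Other PCGF genes lay below 0, among them Pcgf6, given with PRC1.6, at -0.03 and Pcgf3, outside the members, at -0.39.

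The Polycomb CBX genes, whose products read the H3K27 mark for canonical PRC1, all lay below 0. Cbx7 stood at 12.7 FPKM in control retina and 9.30 in the mutant, the lowest log2 ratio of the members (-0.41) and 1.36-fold lower (1.27 to 1.46). Its exons are overlapped on the opposite strand by Apobec3. Cbx2 stood at 2.19 and 1.54 FPKM (-0.33) and Cbx8, the highest of the 3, at 21.8 and 19.7 (-0.14). None passed the smaller rule. The cone, ganglion, amacrine and horizontal cell markers given above were also lower in the mutant, and their part in these values was not tested.

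Kdm2b, which brings PRC1.1 to CpG islands through its zinc finger, hardly differed as a gene, at 6.94 and 6.54 FPKM. Its transcripts did: NM_001003953 stood at 4.21 and 1.26 FPKM, and NM_001005866 at 0.0129 and 2.36, while NM_013910 stood at 2.72 and 2.91. NM_001003953 thus held 60.6% of the gene in control retina and 19.3% in the mutant, and NM_001005866 0.185% and 36.2%. The other deposited table, made from the same libraries, gives 60.6% and 19.3% for the former. In the authors' deposited table the p-value of NM_001003953 is 0.0292, the lowest of the members, with a q-value of 0.991. How fragments were split among these overlapping transcripts is an estimate at low levels; 10.6% of the gene's 50-base stretches occur elsewhere, and Rnf34 and A930024E05Rik overlap it on the opposite strand.

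Of the 13 members with more than 1 transcript in the table with symbols, Kdm2b was the only one whose shares moved by 30 points or more, and 10 moved by under 10. The other deposited table splits some members further: Suv39h1 NM_011514, the only transcript of that gene here, holds 45.1% and 35.4% of it there. In Ehmt2, NM_145830 holds 24.1% and 27.0% there, against 66.6% and 67.9% here. Its other transcript here, NM_147151, holds 10.9% and 11.3% there. In Ehmt1 the main transcript NM_172545 held 73.0% of the gene in control retina and 60.7% in the mutant, NM_001012518 17.3% and 19.9%, and NM_001109687 7.19% and 13.2%. In Suv39h2 the noncoding NR_027509 held 64.0% and 74.5%, with the coding NM_022724 at 4.33 and 2.71 FPKM. In Suz12 the transcript NM_199196 was level, at 34.5 and 32.9 FPKM, while the lesser NM_001163018 stood at 6.37 and 9.70.

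In the remaining members the leading transcript was the same in both libraries. Cbx5 was spread over NM_001076789 (13.7 and 12.1 FPKM), NM_007626 (4.2 and 2.28) and NM_001110216 (2.83 and 1.84), all lower in the mutant. Max was split between NM_001146176 (39.6 and 47.9 FPKM) and NM_008558 (19.3 and 22.7), and Ehmt2 between NM_145830 (33.9 and 34.4) and NM_147151 (17.0 and 16.3). Ezh2 was mostly NM_007971 (4.58 and 6.08 FPKM), with NM_001146689 at 0.472 and 0.929, and Daxx mostly NM_007829 (19.5 and 24.1), with NM_001199733 at 1.94 and 3.82. Both transcripts of these 2 genes were higher in the mutant. The other genes were dominated by 1 transcript: Mga by NM_013720 (13.4 and 12.5 FPKM), Pcgf2 by NM_001163308 (11.7 and 12.8, with NM_001163307 at 1.23 and 1.58) and Setdb1 by NM_018877 (10.6 and 11.3, with NM_001163642 at 1.5 and 2.1).

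**Figure D4:**
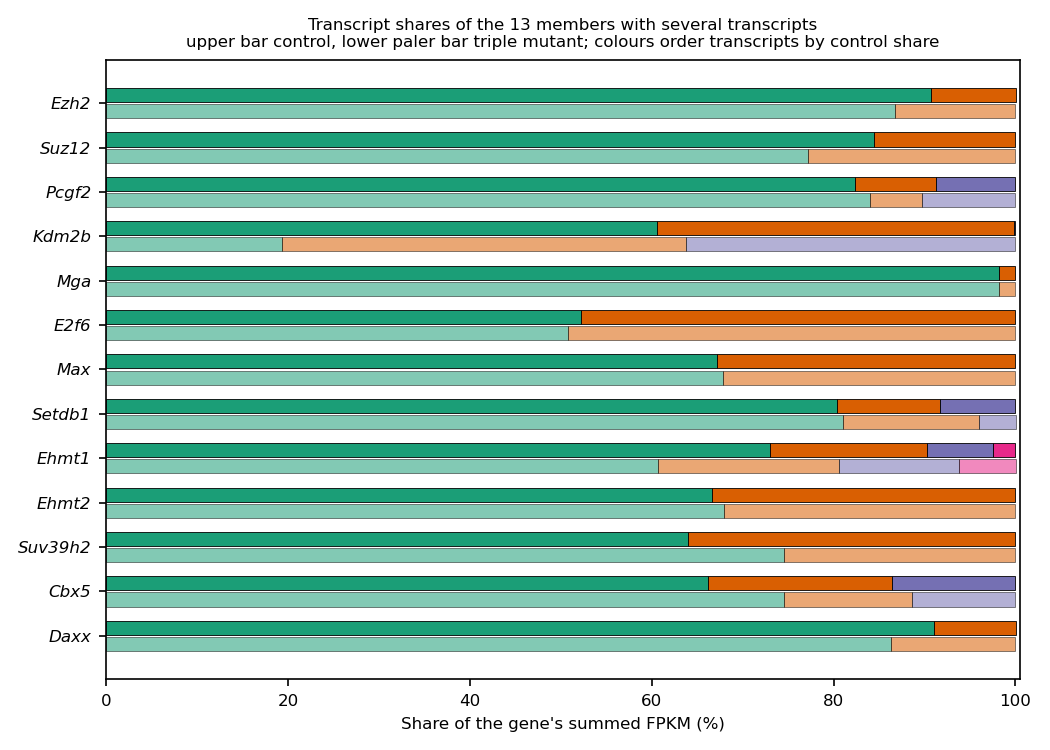
Share of each gene's summed FPKM held by each of its transcripts, for the 13 members with several transcripts, with the control as the upper bar and the triple mutant as the lower, paler bar. Kdm2b stands apart, with its leading control transcript at 60.6% and 19.3%; colours order the transcripts within a gene by control share.

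The H3K9 methylation genes were nearly level between the libraries. Trim28, the corepressor gene that links zinc finger proteins to SETDB1, stood at 68.2 FPKM in control retina and 76.6 in the mutant (log2 ratio 0.17), and Setdb1 itself at 13.2 and 14.0. Setdb1 exons are overlapped on the opposite strand by Cers2. The G9a gene Ehmt2 stood at 50.9 and 50.7 FPKM, 2.71 and 2.82 times its partner Ehmt1 (18.8 and 18.0). Suv39h1, one of the pericentromeric H3K9 methyltransferase genes, stood at 17.7 and 18.2 FPKM. Its relative Suv39h2, which shares exonic sequence with Dclre1c on the opposite strand, stood at 12 and 10.6. All 6 log2 ratios lay between -0.16 and 0.17.

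The HP1 genes lay on both sides of 0. Cbx1, for HP1 beta, stood at 31.4 FPKM in both libraries. Cbx5, for HP1 alpha, was lower in the mutant at 20.8 and 16.2 FPKM (log2 ratio -0.34, 1.28-fold lower, 1.24 to 1.33), in all 3 transcripts. Cbx3, for HP1 gamma, stood at 2.03 and 2.78 FPKM, but 28.9% of its 50-base stretches occur in 16 other genes, among them its pseudogene copies, so its low level is uncertain.

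Of the chaperone pair that deposits histone H3.3 in heterochromatin, Daxx stood at 21.5 FPKM in control retina and 27.9 in the mutant (log2 ratio 0.37; 1.3-fold, 1.24 to 1.37), in both transcripts, and the remodeller gene Atrx at 29.0 and 27.4. The GHKL ATPase gene Morc3 stood at 9.33 and 10.1 FPKM. Smchd1, needed for silencing on the inactive X and at some gene clusters, stood at 14.5 and 15.6. Hells, a remodeller gene that aids DNA methylation and is typical of dividing cells, was low in both.

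Most other genes of the same complexes also lay near 0. Of 73 listed, 62 were measured, 2 passed the smaller rule upward, where 5.37% of all measured genes did, and 0 passed it downward, where 4.74% did; the median log2 ratio was 0.02. Among the measured PRC2 accessory genes the largest log2 ratios were those of Jarid2 (27.0 and 33.7 FPKM, log2 ratio 0.31), Lcor (3.15 and 2.43), Rbbp7 (36.3 and 43.3) and Rbbp4 (42.7 and 46.9). Ezhip, which encodes an inhibitor of PRC2, was under 1 FPKM in both libraries and so not measured, but its log2 ratio was larger, at 0.57. It stood at 0.0101 FPKM in the control, about 1 fragment, and at 0.501 in the mutant, a ratio of 49.7 with a counting interval of 8.57 to 1992. Among other PRC1 genes, the deacetylase gene Hdac1 stood at 4.58 and 8.78 FPKM (0.81), though 58.7% of its 50-base stretches occur in other genes. The CBX gene Cbx6 stood at 81.9 and 61.8 FPKM (-0.40), Pcgf3 at 11.7 and 8.66, and the polyhomeotic gene Phc2 at 68.5 and 88.4.

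Among the partners of H3K9 methylation and of the HUSH silencing complex, the histone H3.3 gene H3f3a had the largest log2 ratio, followed by Setdb2 and the other H3.3 gene, H3f3b. H3f3a stood at 107 FPKM in control retina and 182 in the mutant (0.75), with 16.4% of its stretches shared with 40 other genes, and H3f3b at 331 and 443 (0.42), with 10.6% shared. Setdb2 stood at 3.87 and 5.80 FPKM (0.48) and Resf1 at 2.78 and 3.29. The 17 erasers of repressive marks were the most level, with log2 ratios from -0.20 to 0.10, among them the H3K27 demethylase gene Kdm6a (11.7 and 10.9 FPKM), Kdm1a (38.0 and 40.7), Kdm4a (34.2 and 36.5) and Kdm7a (13.3 and 11.4).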

How the data were processed

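Total RNA of retinas from postnatal day 15 was sequenced as 1 control and 1 triple mutant library. The submitters' processing notes name TopHat2 2.0.8, Cuffdiff 2.1.1 and the build mm10. Layout, strandedness and annotation: not given in the sources used here. Both deposited tables list, per the file headers, an FPKM for every transcript and library, estimated by the authors, and the authors' own p-value and q-value. FPKM was summed per symbol in the table with symbols (30608 rows). A gene was used with at least 1 OK transcript and none failed or over the data limit (15318 of 23356). Of the listed genes, 8 were matched under an older symbol by accession.

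The design expected a table of genes, and both tables list transcripts. With 1 library per genotype no test was run. Size was log2 of the FPKM ratio with a pseudocount of 1, which understates low genes. Fragments were recovered from the steps of low values at a fragment length of 150 bases. This length gave the largest excess of whole multiples over evenly spread values, scaled to the number of values and summed over both libraries. At this length 74.2% of control and 70.6% of mutant low values were whole multiples within 10% of a step. This gave 48.3 and 56.2 fragments per kb at 1 FPKM. Intervals of 95% (Clopper-Pearson on fragments) cover counting error only. The size rule and intervals were tested on simulated data.

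All members were named; of other genes, the 4 largest ratios among the measured genes of each group and any past 0.5, and every measured germ-cell gene. The unmeasured germ-cell genes were named after their values were seen. The Hox genes are given as counts. In members with more than 1 transcript, transcripts were named where they held at least 10% of the gene. The members and lists were chosen with earlier results of these data known. Shared stretches of 50 bases and overlaps come from GENCODE M21; promoters and 8 symbols from RefSeq (GRCm38.p6). Alternatives were pseudocounts of 0.1 and 5, no filter or 5 FPKM, the second table, the highest transcript and centring. Python 3.11.15, pandas 2.3.3 and scipy 1.17.1 were used.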

Additional observations from a re-analysis of the deposited data

How the results depend on the processing

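E2f6 kept a log2 ratio between 0.82 and 1.09 under the 7 alternatives and passed 0.5 in each. The count of members past the size rule was 0 with a pseudocount of 5 FPKM (E2f6 at 0.82) and 0 with only the highest transcript of each gene (0.94), and 1 otherwise. The count of germ-cell genes past it was 0 with a pseudocount of 5 and 0 among genes of at least 5 FPKM; in the latter setting fewer genes are tested. The members' median ran from 0.03 to 0.10, with 0.10 in the second table, where the log2 ratio of all genes is shifted by 0.06. There Pcgf6, L3mbtl2 and Ehmt2 went from just below 0 to just above it. Ehmt1 went from -0.06 to 0.00 and Cbx1 from 0.00 to 0.06, and the largest move of a member was 0.06. Of all measured genes, 331 passed the size rule; this count became 570 at the smaller pseudocount (0.1), 125 at the larger (5) and 212 under the 5 FPKM filter. With the highest transcript only, 4 members changed sign and the largest move was 0.24. No paired analysis was possible because each genotype has 1 library, and for the same reason no library could be left out. Below about 0.1 FPKM values rest on few fragments.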
